A study of Mus musculus with 3 samples.

Results

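Photoreceptor fate is set by a small network of transcription factors, and 8 of them were followed here in mouse retina: Crx, Nrl, Nr2e3, Neurod1, Thrb, Rorb, Rxrg and Mef2c. They were chosen by name, and every probe set whose platform annotation gave 1 of these names as its only gene symbol was taken. This gave 9 probe sets for 6 of the 8 genes, of 8251 genes with a probe set of their own. Crx, Nrl, Neurod1, Thrb and Rxrg had 1 probe set each and Mef2c had 4, while Nr2e3 and Rorb had none under the rule and were not analysed here.

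The series holds 3 one-colour Affymetrix U74Av2 arrays, each hybridised with RNA pooled from the neural retinas of 3 to 4 mice. All mice carried the Rp1 knockout (Rp1-/-) on a mixed 129/SvEv and C57BL/6 background and were at postnatal day 21 (P21), with retinas taken between 1 and 2 pm. The product of Rp1 binds the microtubules of the axoneme in the outer segment of photoreceptors, and Rp1 itself was not analysed here. The 3 pools form 1 group, and no wild-type retina was analysed here, so no value here measures an effect of the knockout and none carries a p-value. The labels give no replicate number, sex or litter, and replicates 1 to 3 are named in the order of their records. The spread between arrays is that between these 3 RNA pools and their hybridisations together.

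Crx is a homeodomain factor that activates most rod and cone genes once a precursor has become a photoreceptor. Nrl, a Maf-family leucine zipper protein, together with its target Nr2e3, an orphan nuclear receptor, drives the rod programme and keeps cone genes off in rods. Without Nrl a precursor takes a cone course, in which the thyroid hormone receptor Thrb and the retinoid receptor Rxrg set the pattern of cone opsins. Rorb acts before Nrl, Neurod1 is a basic helix-loop-helix factor needed to maintain photoreceptors and also made in inner retinal neurons, and Mef2c is a MADS-box factor that is a target of Nrl in rods and is also made in endothelium and microglia.

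The upstream sequences of Crx and Neurod1 are shown because they held 2 copies of TAATCC and of TGCTGA, the motifs of Crx and of the family of Nrl. All 8 factors matched RefSeq promoter windows of assembly GRCm38.p6 by symbol, with 13 windows in all. The array table names no build, so these positions describe the genes and not the probe sets. Each stretch is the 150 bases just before the annotated start, written 5′ to 3′ on the gene's own strand, with the matches to TAATCC or its reverse complement (Crx) and to TGCTGA or its reverse complement (Neurod1) in capitals. The Crx stretch lies at chr7:15879956-15880105 and the Neurod1 stretch at chr2:79456637-79456786, both on the minus strand.
Crx: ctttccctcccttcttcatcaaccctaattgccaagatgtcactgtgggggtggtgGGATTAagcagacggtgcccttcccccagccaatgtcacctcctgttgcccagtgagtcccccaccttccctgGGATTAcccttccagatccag
Neurod1: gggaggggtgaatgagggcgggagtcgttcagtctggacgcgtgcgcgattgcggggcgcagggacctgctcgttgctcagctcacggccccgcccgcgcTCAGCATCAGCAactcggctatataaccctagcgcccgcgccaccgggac

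TAATCC is the core recognised by Crx and its relative Otx2, TGCTGA is the half-site of Maf proteins such as Nrl, AGGTCA is the half-site of nuclear receptors, and CANNTG is the E-box of helix-loop-helix factors. Each was searched on both strands in the 250 bases before the start. The Crx window held TAATCC at 2 places, which began 94 and 21 bases before the start, whereas 6.25% of 32851 windows held it at all and 0.295% held it 2 times or more. Of the other factors only Thrb had a match to it, 46 bases before 1 of its 2 annotated starts. Neurod1 had TGCTGA in 2 abutting copies, 50 and 44 bases before the start, and 1 window each of Mef2c and Rorb also held it, against 16.1% of all windows. AGGTCA was found in 2 windows of Mef2c, 1 of which held it 2 times, and in 1 each of Thrb and Rxrg, against 14.0% of all windows. The E-box was in 8 of the 13 windows, Nrl and Nr2e3 included, against 66.2% of all. These are matches of letters and not measured binding.

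Signals are linear intensities after each array had been multiplied by a single factor that brings the arrays to a common trimmed mean. Background was judged array by array. A signal was called above it when it passed the 95th percentile of 19 controls, probe sets against transcripts of bacteria and yeast. This limit stood at 160.3, 80.7 and 107.1 on the arrays of replicates 1, 2 and 3. Of the 9 probe sets 6 were above it on all 3 arrays, against 54.4% of all 12422 probe sets that are not controls, and 5 of the 6 measured genes had such a probe set, against 62.8% of all genes. With 3 arrays the precision of each value is limited, and signals of different probe sets are not compared as levels, because probe sets differ in response.

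Crx, the shared activator of rod and cone genes, had the narrowest range of the factors above background under this scaling. Its signals were 4020, 5601 and 5067 in replicates 1, 2 and 3, a mean of 4896 ± 804 (SD, n = 3) and a 1.39-fold range. Replicate 1 was the lowest and replicate 2 the highest. It stood at the 98.3rd, 98.1st and 98.2nd percentile of the probe sets of the 3 arrays in turn. Its log2 range of 0.48 lay at the 27.4th percentile of the ranges of all 6752 probe sets above background on all 3 arrays. The order of the pools for Crx depended on the scaling of the arrays. After quantile normalization the values were 5091, 4698 and 4991, with a log2 range of 0.12 and replicate 1 highest, while scaling to a common median widened the range to 0.93 with replicate 2 highest.

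Neurod1 was highest in replicate 2. It gave 4084, 7029 and 3995 in replicates 1, 2 and 3, so that replicates 1 and 3 were close to each other and replicate 2 stood 1.76-fold above the lowest (5036 ± 1726, n = 3). The log2 range was 0.82, at the 57.3rd percentile. Replicate 2 stayed highest after quantile normalization, where the values were 5188, 5885 and 3953 and the range was 0.57. It was highest also with a common median, where the values were 3508, 8249 and 4062 and the range widened to 1.23. Without replicate 2 the range was 0.03.

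Nrl, the switch to rod fate, was highest in replicate 1. Its signals were 1468, 496 and 706 in replicates 1, 2 and 3, a mean of 890 ± 512 (SD, n = 3) and a 2.96-fold range. Its place among the probe sets of an array moved with it, from the 91.5th percentile in replicate 1 to the 69.3rd in replicate 2 and the 76.8th in replicate 3. The log2 range of 1.57 lay at the 90.5th percentile of all probe sets above background. Replicate 1 was the highest and replicate 2 the lowest pool under each of the 3 scalings, with a log2 range of 1.12 when the arrays had a common median and 1.59 with quantile normalization. Between replicates 2 and 3 alone Nrl differed by 0.51 on the log2 scale.

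**Figure D1:**
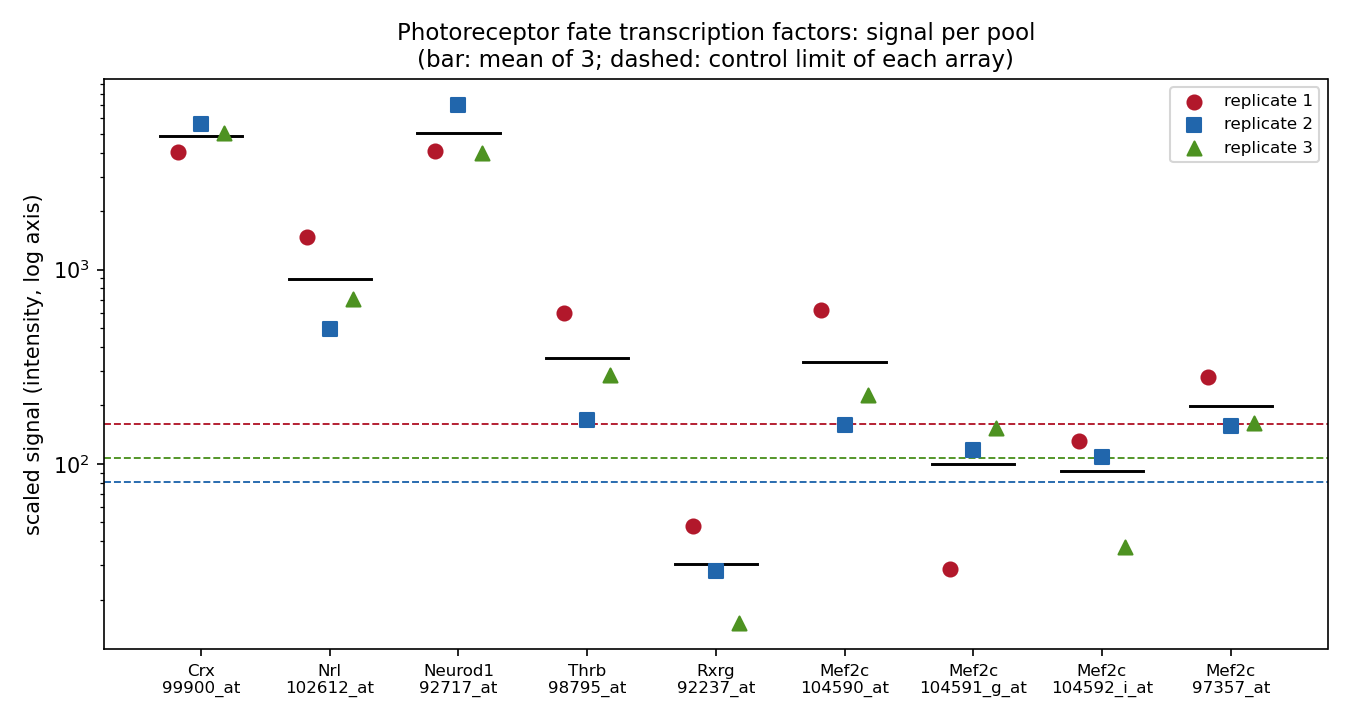
Scaled signal (intensity, log axis) of the 9 probe sets of 6 transcription factor genes in each of the 3 pools, with the mean of the 3 as a bar and the control limit of each array as a dashed line in the colour of that array. Crx and Neurod1 lie between 3995 and 7029, Nrl, Thrb and the 2 probe sets of Mef2c above background on all arrays are highest in replicate 1, and Rxrg lies under all limits.

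Thrb, the thyroid hormone receptor of cones, took the same course as Nrl. Its signals in replicates 1, 2 and 3 were 594, 169 and 286, a mean of 350 ± 220 (SD, n = 3), with a 3.52-fold range. Replicate 1 was well apart from the other pools. The log2 range was 1.82, at the 94.3rd percentile, and it was 1.37 with a common median and 1.43 after quantile normalization, in both cases with replicate 1 highest. The probe set carries the symbol of the whole gene, so the cone isoform of Thrb and the other isoforms were not separated.

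Rxrg, the retinoid receptor of cones, was above background on no array. Its signals of 48.0, 28.0 and 15.1 in replicates 1, 2 and 3 all lay under the limits, between the 6.5th and the 15.3rd percentile of the arrays. No order of the pools is read from them. A signal under the limit does not show that the transcript is absent, and in the retina Rxrg is made mainly in cones and ganglion cells.

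Mef2c is the only factor with more than 1 probe set, and they did not order the pools alike. The probe set 104590_at gave 619, 158 and 226 in replicates 1, 2 and 3 (334 ± 249, n = 3), a 3.91-fold range with the highest signal in replicate 1. Its log2 range of 1.97 lay at the 95.8th percentile. The probe set 97357_at ordered the pools alike, at 280, 157 and 161 (199 ± 69.8, n = 3), but with a 1.79-fold range, a log2 range of 0.84 and the 59.1st percentile. Both were above background on all arrays.

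The other 2 Mef2c probe sets were dim. 104591_g_at gave 28.7 in replicate 1, under the limit, and 118 and 152 in replicates 2 and 3, so it was lowest where the first pair was highest. 104592_i_at gave 131, 108 and 37.4, above the limit in replicate 2 alone, and its highest signal moved from replicate 1 to replicate 2 with a common median and with quantile normalization. The endings _g_at and _i_at mark probe sets outside the standard selection of the array's design. The log2 range of Mef2c between the same pools was thus 1.97 at 104590_at and 0.84 at 97357_at.

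Disagreement between probe sets of a gene was common on these arrays. Among all genes with several probe sets above background there were 1041 pairs, and 36.3% of them had their highest signal in the same pool and 19.7% ordered all 3 pools alike. The pair 104590_at and 97357_at of Mef2c was among these. The distance between the centred log2 profiles of the pair was 0.80, against a median of 0.73 over all pairs, and 55.2% of pairs were as close or closer. For Crx, Nrl, Neurod1 and Thrb the rule found no second probe set to set beside the first.

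Probe sets of high and of low signal differed in which pool was highest, among the factors and over the whole array. Of the 6 probe sets above background, 4 (Nrl, Thrb and both Mef2c probe sets) were highest in replicate 1 and 2 (Crx and Neurod1) in replicate 2, against 43.1% and 31.5% of all probe sets above background. The 4 had mean signals below 1000 and the 2 had means above it. Of all probe sets with a mean below 1000, 52.5% were highest in replicate 1, and of those at 1000 or more 19.5% were. In 10 bins of equal size by mean signal the share was 69.8% in the dimmest, which held Mef2c 97357_at, 57% in that of Thrb and Mef2c 104590_at, 40% in that of Nrl and 10.4% in the brightest, which held Crx and Neurod1. The same share over all probe sets above background was 25.0% with a common median and 39.3% after quantile normalization, which left 40.3% below 1000 and 36.9% at 1000 or more. The part of this tilt in the values of the factors was not tested.

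Against that tilt the size of the deviations can be read. Replicate 1 minus the mean of replicates 2 and 3 on the log2 scale was 1.31 for Nrl, 1.43 for Thrb, 1.71 for Mef2c 104590_at and 0.82 for Mef2c 97357_at. The median of all probe sets in the same bin was 0.02 for Nrl, 0.33 for Thrb and Mef2c 104590_at, and 0.57 for Mef2c 97357_at. Crx and Neurod1 deviated by -0.41 and -0.38, where the brightest bin had a median of -0.40. Crx and Neurod1 thus lay near the median of their bin, which spans mean signals from 2139 to 49258, and Nrl, Thrb and Mef2c 104590_at lay more than 1 unit above the medians of theirs.

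**Figure D2:**
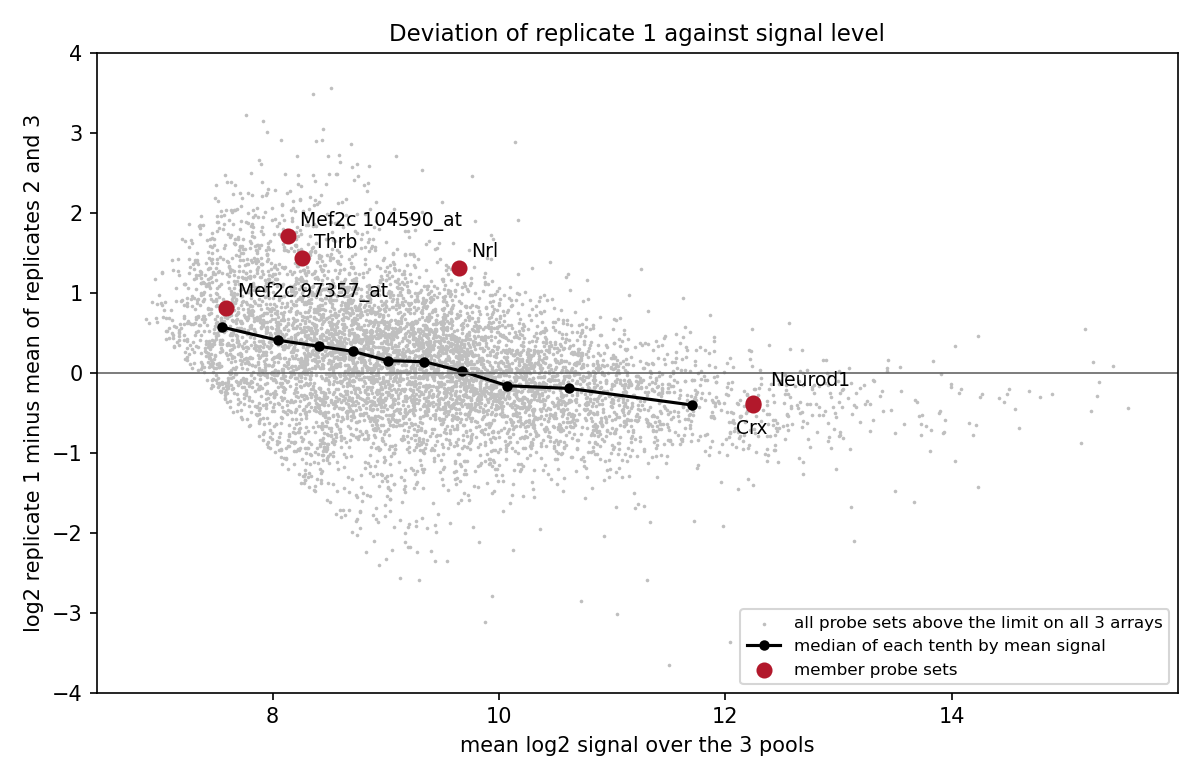
Log2 signal of replicate 1 minus the mean of replicates 2 and 3 (vertical axis) against the mean log2 signal over the 3 pools (horizontal axis) for the 6752 probe sets detected over the limit on every array, with the median of each of 10 signal bins in black and the 6 probe sets of the factors in red. The median line runs from 0.57 at the dim end to -0.40 at the bright end, and Nrl at 1.31 and Thrb at 1.43 stand above it.

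The order replicate 1, then 3, then 2 was shared by Nrl, Thrb and both Mef2c probe sets, 4 of 6, against 23.5% of all probe sets above background. With a common median and with quantile normalization Mef2c 97357_at changed to the order replicate 1, then 2, then 3. For Nrl, Thrb and Mef2c 104590_at it came with a log2 range of 1 or more, and 14.9% of all probe sets with a mean below 1000 had both. Counted over the factors, 3 of 6 probe sets had a log2 range of 1 or more, against 30.6% of all 6752, and the median range was 1.20 against 0.72. With a common median Neurod1 also passed 1, which made it 4 of 6 against 35.6%. Without replicate 1, 0 of 7 probe sets above background reached a range of 1, against 7.63% of all, so these wide ranges rest on replicate 1. Members are few and were named with earlier results of these arrays known, so the counts only describe them.

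**Figure D3:**
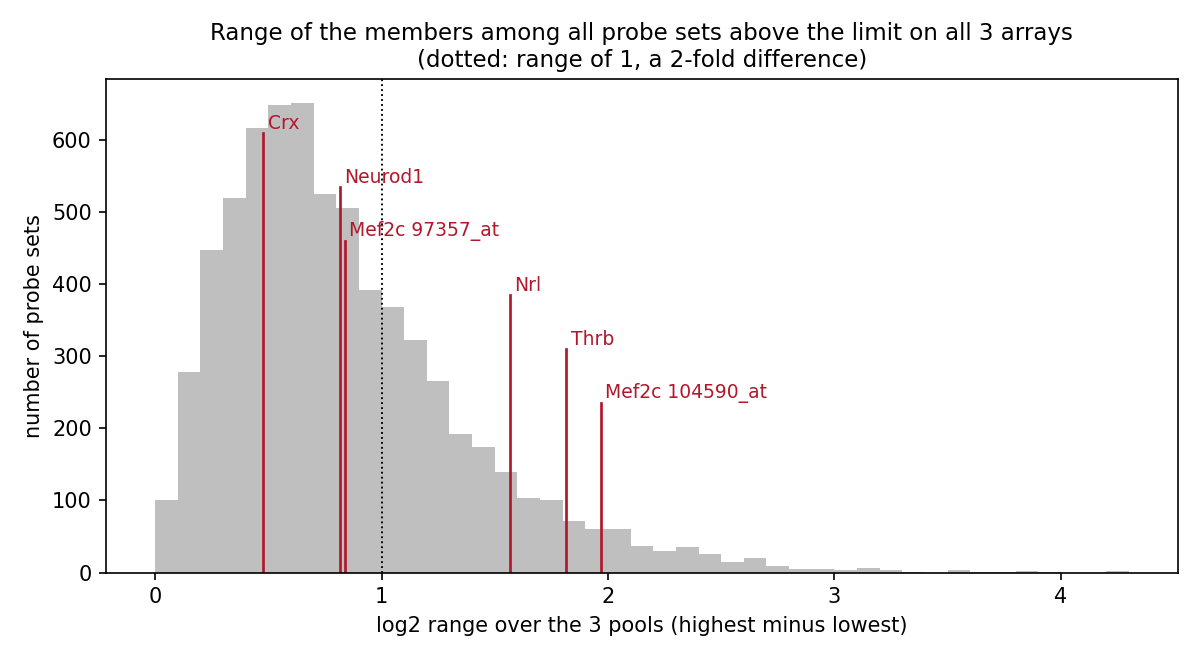
Number of probe sets (vertical axis) by log2 range over the 3 pools (horizontal axis, highest minus lowest) for the 6752 probe sets above background on all arrays, with the 6 probe sets of the factors as red lines of arbitrary height and a dotted line at 1. Crx at 0.48 lies below the median of all probe sets (0.72), and Nrl, Thrb and Mef2c 104590_at lie at 1.57, 1.82 and 1.97.

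Likeness between profiles was measured as the Euclidean distance of centred log2 signals over the 3 pools, a description that rests on only 3 points. Nrl and Thrb were 0.20 apart, Thrb and Mef2c 104590_at 0.29, and Nrl and Mef2c 104590_at 0.33. The other Mef2c probe set above background, 97357_at, lay 0.52 from Nrl, 0.72 from Thrb and 0.80 from 104590_at. Distances were taken with the arrays at a common trimmed mean only. Crx and Neurod1 were 0.47 apart, and each lay 1.48 or more from Nrl, Thrb and Mef2c 104590_at. Of 5005 other genes, 472 lay within 0.2 of Crx, 96 of Neurod1, 76 of Nrl, 45 of Thrb and 40 of Mef2c. The closest were Ncam1 and Lin7c to Crx, Slc25a4 and Hnrnpl to Neurod1, Krtap13 and Glra1 to Nrl, Taf6 and Fosb to Thrb, and Otulinl and Kctd9 to Mef2c.

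Of 22 listed rod target genes of these factors 14 had a probe set, and all 14 were above background on all arrays. In 9 of the 14 the highest pool was replicate 2, in 3 it was replicate 1 and in 2 replicate 3, and 0 had the order of Nrl. Of the 14, 13 lay in the brightest bin, where 68.8% of all probe sets were highest in replicate 2 and 2.96% had the order of Nrl, so these counts were near those of other bright probe sets. A log2 range of 1 or more was found in 5 of the 14, against 18.5% in that bin and 30.6% of all probe sets above background. Of the 5, Rgs9, with a mean of 218, was the 1 that lay outside that bin. The count was 6 when every probe set of a gene was counted. With a common median it was 9, against 35.6% of all. Gnat1, the rod transducin alpha subunit, gave 30806, 51740 and 35647 in replicates 1, 2 and 3. Pde6a and Pde6b, the catalytic subunits of the rod phosphodiesterase, gave 1680, 2478 and 3452 and 12399, 14881 and 9300. Gnb1, the transducin beta subunit, gave 9934, 26613 and 27086. The disc rim gene Prph2 (4470, 1941 and 1690), the transducin-GTPase activator Rgs9 (365, 164 and 126) and the rod channel gene Cnga1 (3223, 3030 and 1972) were the 3 that were highest in replicate 1, although Cnga1 was highest in replicate 2 with a common median. The pool that was highest in the largest number of rod genes turned with the scaling. After quantile normalization 8 of the 14 were counted as highest in replicate 1 and 4 in replicate 2, with ties given to the first pool. The 8 include Sag, which was equal in all 3 pools. The 4 include Gnat1, which was equal in replicates 2 and 3.

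Promoter windows were held for 15 of the listed rod target genes, and 7 of these windows held TAATCC, against 6.25% of all windows. The same core stood in 1 of 7 windows of 6 cone target genes. TGCTGA was in 5 of the 15 rod windows, against 16.1% of all, and AGGTCA also in 5, against 14.0%. The E-box was in 10 of the 15, against 66.2%. Of the 7 cone windows, 1 held TGCTGA, 1 held AGGTCA and 6 held the E-box.

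Of 10 listed cone target genes 6 were measured and 5 were above background on all arrays. In 4 of the 5 (Opn1sw, Opn1mw, Gnat2 and Gnb3) the signal was highest in replicate 2, against 31.5% of all probe sets above background. Of the 5, 3 lay in the brightest bin, where 68.8% of all probe sets were highest in replicate 2. The short-wave opsin gene Opn1sw gave 2606, 4611 and 2991, and the middle-wave opsin gene Opn1mw, whose product is placed under the control of Thrb, gave 1283, 2661 and 1817. Gngt2, the cone transducin gamma subunit, went the other way, at 675, 307 and 197. Replicate 2 was highest in 4 of the 5 with a common median and with quantile normalization too. Replicate 2 minus the mean of the other pools had a median of 0.72 on the log2 scale in the cone target genes, while Thrb stood at -1.29 and Crx and Neurod1 at 0.31 and 0.80. Thrb lay in a dimmer bin than these, and the part of the signal level in this difference was not tested.

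**Figure D4:**
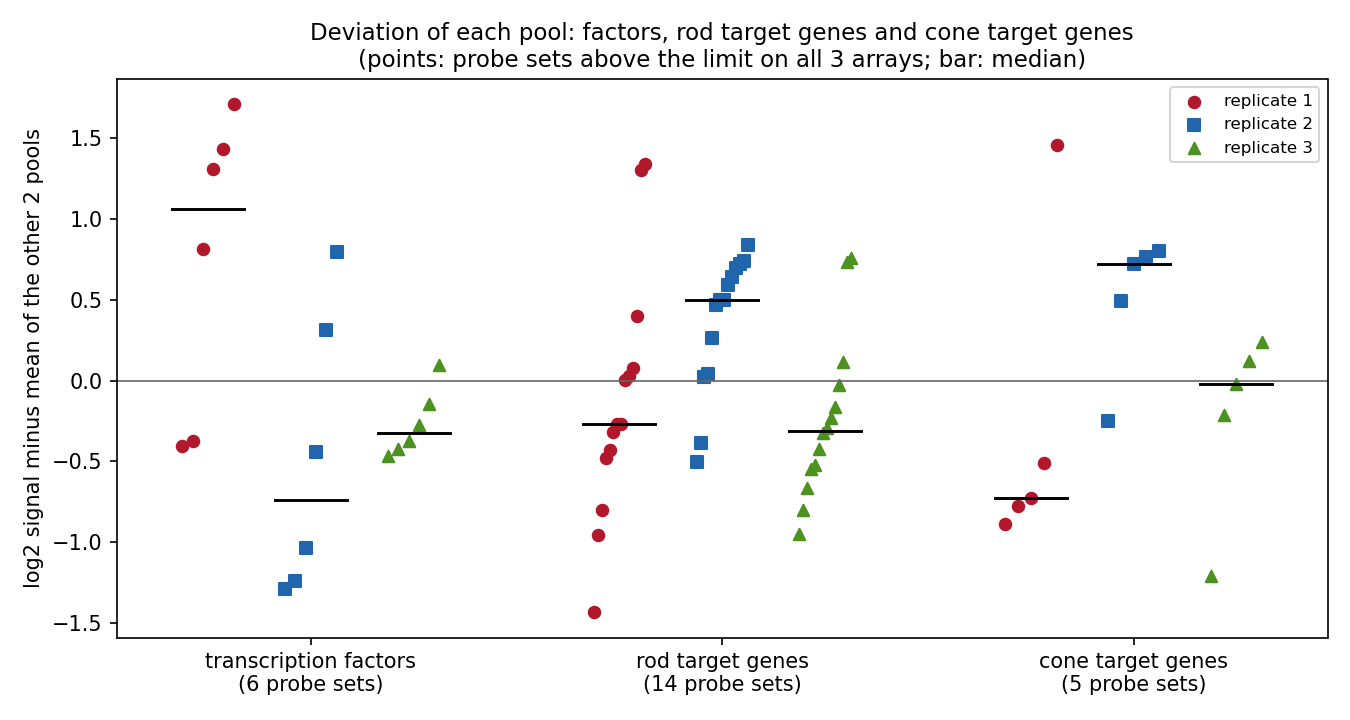
Log2 signal of each pool minus the mean of the other 2 pools (vertical axis) for the 6 probe sets of the transcription factors, 14 rod target genes and 5 cone target genes above background on all arrays, with medians as bars. In replicate 2 the factors fall into a low set (Nrl, Thrb and Mef2c) and a high set (Crx and Neurod1), and the medians of rod and cone target genes are 0.50 and 0.72.

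Of 15 listed regulators that act before or beside the photoreceptor choice 10 had a probe set. Counted by 1 preferred probe set a gene, 5 were above background on all arrays and 0 of the 5 had a log2 range of 1 or more, against 30.6% of all probe sets above background. Counted over every probe set, a choice made after seeing the data, 6 were above background and 1 of them, Notch1, had such a range. Notch1, whose signalling holds progenitors back from photoreceptor fate, gave 767, 168 and 274 at the probe set in question, in the order of Nrl and with a log2 range of 2.19. Its preferred probe set gave 87.6, 528 and 602, under the limit in replicate 1 and lowest there, so the probe sets of Notch1 opposed each other. Rax, the retinal homeobox gene, gave 1120, 1131 and 1196, and Pax6, kept in amacrine and ganglion cells, gave 2978, 2474 and 3060. Prdm1, which holds photoreceptor precursors against bipolar fate, gave 187, 142 and 185. Prdm1, Six3 (1163, 727 and 862) and Hes1 (782, 570 and 674) had the order of Nrl, 3 of the 5. The share among all probe sets above background was 23.5%. The ranges of Prdm1, Six3 and Hes1 were 0.40, 0.68 and 0.46. With a common median Prdm1 and Hes1 were highest in replicate 3, and Prdm1 was so after quantile normalization too. Six6 and Atoh7, which marks ganglion cell precursors, were above background on no array.

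Of 20 listed paralogues of the factors 15 had a probe set, and 9 were above background on all arrays by their preferred probe set or 11 by any probe set, which adds Rora (1276, 1578 and 1221) and Rxra (476, 311 and 603). By either count 0 had a log2 range of 1 or more, against 30.6% of all probe sets above background. With a common median 3 of the 9 did, against 35.6% of all, and with quantile normalization 1 did, against 27.6%. Thra, the other thyroid hormone receptor gene, gave 2110, 2718 and 2983, so it was lowest in the pool where Thrb was highest, as it was under the other 2 scalings. Rxrb, the relative of Rxrg, gave 1774, 1790 and 1773, a 1.01-fold range that widened to 0.46 on the log2 scale with a common median. Mef2a (987, 1598 and 1310) was lowest in replicate 1 under all 3 scalings, where Mef2c 104590_at was highest. A second Mef2a probe set, above the limit in replicate 1 alone, gave 176, 31.6 and 71.6 and was highest there, so the Mef2a probe sets opposed each other. Mef2d (7133, 7723 and 7832) was lowest in replicate 1 but highest there after quantile normalization, and Mef2b gave 463, 439 and 827. Mafg, a small Maf protein gene, gave 483, 428 and 361, but replicate 2 was highest under the other 2 scalings. A second Mafg probe set, under the limit in replicate 1 and lowest there, gave 90.2, 358 and 326. The Mafg probe sets thus did not order the pools alike. Neurod4, a relative of Neurod1 in bipolar and amacrine cells, had its highest signal in replicate 2 as Neurod1 did (1939, 2899 and 2197). Both lay in the brightest bin, where 68.8% of all probe sets were highest in replicate 2.

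Among partners and cofactors 12 of 17 listed genes had a probe set and 9 were above background on all arrays. The nuclear receptor coactivator Ncoa1 gave 681, 522 and 616, and the acetyltransferase gene Crebbp, whose product is recruited by Crx, gave 664, 1198 and 990. Rb1, the retinoblastoma gene, gave 227, 496 and 399. It was the 1 of the 9 with a log2 range of 1 or more, against 30.6% of all probe sets above background. With a common median Crebbp and Banf1 passed 1 as well, which made it 3 of the 9, against 35.6% of all. Pias3, a SUMO ligase that acts with Nr2e3 and Crx, gave 1518, 1016 and 1083. Pias3 and Ncoa1 had the order of Nrl, 2 of the 9, against 23.5% of all probe sets above background. With a common median replicate 3 was lowest for Pias3 and highest for Ncoa1. Of the other 2 Pias3 probe sets 1 had the order of Nrl (851, 523 and 645) and 1 did not (1039, 1008 and 1118).

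As markers of the labelled tissue, 6 of 6 measured rod genes and 3 of 4 cone genes were above background on all arrays, and the cone channel gene Cnga3 on none. Lens markers were also above background on all arrays in 7 of 7 genes, Mip and Bfsp1 included, with sums of 128467, 189739 and 133972, and the crystallin gene Cryaa had a mean of 49258. Bipolar cell markers were above background in 3 of 4 genes (sums 1402, 2784 and 2853). Müller glia markers were so in 6 of 6 genes (sums 12448, 19732 and 17126). Under each scaling 0 of the 3 and 2 of the 6 were highest in replicate 1. The share among all probe sets above background was 43.1%, and 25.0% with a common median. In bulk tissue, fewer cells of a type and less RNA per cell cannot be told apart. Mef2c is also made in endothelium and microglia. Of 7 endothelial markers 3 (Pecam1, Kdr and Cldn5) were above background on all arrays. All 3 had the order of the 2 Mef2c probe sets above background, against 23.5% of all probe sets above background. All 3 had means below 1000, where 52.5% of all probe sets above background were highest in replicate 1. The other endothelial markers were not above background on all arrays. Cdh5, Tek and Emcn had the order replicate 1, then 2, then 3, and Tie1 was highest in replicate 2. The summed signals of the list were 2613, 1458 and 1795 in replicates 1, 2 and 3. With a common median 1 of Pecam1, Kdr and Cldn5 was highest in replicate 1, and with quantile normalization 2 were. Of 8 microglia markers 4 were above background, 2 of them highest in replicate 1, with sums of 2434, 1881 and 2359, and Ptprc was above background on no array. Ganglion cell markers were highest in replicate 1 in 5 of 6 genes (sums 8132, 6715 and 5649). Amacrine and horizontal cell markers were so in 5 of 9 (sums 16884, 19521 and 16395). With a common median these counts were 2 of 6 and 2 of 9. Of all probe sets above background 43.1% were highest in replicate 1, and 25.0% with a common median. Pigment cell markers were lowest in replicate 1 (sums 1422, 12026 and 7835), and red blood cell markers summed to 5490, 31716 and 8254. The part of any of these in the signals of the factors was not tested.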

How the data were processed

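The deposited values are linear intensities, given for 12488 probe sets on each of 3 arrays. The authors' software, background correction and scaling are not given in the sources used here, but the deposited intensities have a 2% trimmed mean of 500.2 to 500.3 on each array, so they share a scale. Each array was multiplied by a factor (0.998 to 1.00) that equalised this mean with the controls left out, which leaves 12422 probe sets. Values under an array's 5th percentile were set to it before log2.

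Genes were named from the platform annotation where a probe set had 1 symbol (10833 probe sets, 396 had several and 1193 none). With several probe sets in a listed gene, a plain suffix and then the highest mean was preferred. The factors and lists were chosen with earlier results of these data known. Named genes were all factors, the first 4 measured genes of a list, its widest or narrowest, and the 2 nearest profiles, while Hes1, Notch1, Rora, Rxra, Banf1, Six6, Atoh7, Prph2, Cnga1, Pias3, Thra, Neurod4, Mef2a, Mef2d and the marker genes named were picked after their values were seen. Alternatives were other limits, a common median, quantile normalization, no floor, a pseudocount of 50, a 1.5-fold range and each pool left out.

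With 1 group no test was made, and counts stand beside those of all probe sets. Computations were checked on simulated data and run in Python 3.11.15 with numpy 2.4.6 and pandas 2.3.3, with figures in matplotlib 3.10.9.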

Additional observations from a re-analysis of the deposited data

How the results depend on the processing

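The number of factor probe sets above background on all arrays (6) and of genes (5) was 6 and 5 with the highest control as limit, with a limit at percentile 40 of an array, with a common median and after quantile normalization, and 6 to 7 and 5 with each pool left out in turn. The number with a log2 range of 1 or more (3) was 3 under either other limit, quantile normalization, no floor and a pseudocount of 50, 4 with a common median, 5 at a threshold of a 1.5-fold range (against 62.8% of all probe sets) and 0 to 3 with a pool left out, the 0 being without replicate 1. Another scaling put another pool highest in 4 of 18 comparisons, for Crx, Rxrg and Mef2c 104592_i_at, and the other settings cannot change that pool while it is kept. The log2 range of a single probe set moved by more than its SD in 12 of 81, of which 6 were without replicate 1. Signal under the control limit restricts what can be said of Rxrg, and signal near or under it what can be said of the dim Mef2c probe sets. No paired analysis was possible because the samples form 1 group.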
